A study of Homo sapiens with 75 samples.

Results

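HBL-2, an established human mantle cell lymphoma line, was compared after treatment with the antibody GA101 and after treatment with PBS, with 3 arrays in each group. A change was kept as firm only where it had the same direction against a further 3 arrays of HBL-2 cells given an isotype control antibody, so that 9 of the series' 75 arrays carry the main result. The series holds 5 lines of this lymphoma (REC-1, JEKO-1, HBL-2, Z138 and GRANTA-519), each given PBS, the isotype control, GA101, rituximab or both CD20 antibodies together, with 3 arrays for each combination. GA101 is obinutuzumab, and each CD20 antibody was used at 10 µg/ml on cells grown in RPMI1640 medium with glutamine and fetal bovine serum. The labels give no dose for the isotype control, no time between treatment and harvest, and no cell other than the line itself. HBL-2 stands for a single tumour. Whether the 3 arrays of a group came from separate cultures is not stated, so a p-value here weighs a difference only against array-to-array spread, part of which may be technical.

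CD20, the product of MS4A1, is a membrane protein of B cells that is not readily shed or internalised, which has made it a target for antibodies in lymphoma. Rituximab is a type I antibody, which gathers CD20 into lipid rafts and activates complement well. GA101 is a type II antibody with a glycoengineered Fc part: it moves little CD20 into rafts, activates complement poorly, and is known for homotypic adhesion of the bound cells and for direct, caspase-independent cell death in which lysosomes and the actin cytoskeleton take part.

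Transcripts were measured on Affymetrix 3' expression arrays, on which a gene is read by 1 or more probe sets and a probe set's value is an intensity on a linear scale. The 9 HBL-2 arrays had the same mean intensity (172), medians from 12.8 to 17.4, and correlations with the other arrays of their group between 0.976 and 0.981 on the log2 scale. The log2 ratio of the 3' to the 5' control probe set of beta actin was 1.087, 0.845 and 1.028 with GA101. It was 1.097, 1.250 and 1.325 with PBS, all above GA101, and 1.145, 0.982 and 1.062 with isotype, which overlapped both. That of GAPDH was at most 0.080. Whether the beta actin difference bears on the calls was not tested. The number of arrays limits the precision. The line carried markers of its type: the B cell genes CD79A, CD79B and PAX5 had median intensities of 351, 774 and 1514 over the 9 arrays, and the mantle cell genes CCND1 (cyclin D1) and SOX11 of 3045 and 181. CD5, which mantle cell lymphoma often carries, was dim, with a median of 7.96. Of 6 T and NK cell markers on the array 0 were bright enough to be tested, and their summed intensity lay between 24.6 and 63.5 on the 9 arrays. The B cell genes BLK and CD22 were dimmer than those named, with medians of 97.6 and 65.7. Of 7 myeloid markers 3 were bright enough to be tested, LYZ, CSF1R and ITGAM, with medians of 87.5, 22.6 and 17.7. The monocyte marker CD14 had a median of 0.

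The transcript of the antibodies' target was high in all groups. MS4A1 (probe set 228592_at) had intensities of 4225, 4379 and 4443 with PBS, 4339, 4274 and 4058 with isotype and 4809.7, 4489 and 5070.4 with GA101. The GA101 arrays lay above all 6 control arrays, but the difference was small, at 0.14 ± 0.0527 (SE, adjusted p = 0.136) on the log2 scale against PBS and 0.18 (adjusted p = 0.0233) against isotype. The call against isotype ended without GA101 replicate 1 (adjusted p = 0.0727), GA101 replicate 3 (adjusted p = 0.188) or isotype replicate 3 (adjusted p = 0.148). The mean over the gene's probe sets gave 0.25 against PBS (adjusted p = 0.00233). Without 1 array at a time the difference from PBS ran from 0.096 to 0.18. CCND1, with 3086, 3059 and 2979.6 in PBS and 2933, 3068 and 2872 in GA101, differed by -0.041 ± 0.523 (SE, adjusted p = 0.99). That error is drawn from the spread over all 25 groups of the series, not from HBL-2 alone.

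Of 12075 genes tested, 592 differed between GA101 and PBS (4.9%), 193 higher (1.6%) and 399 lower (3.3%), by limma with Benjamini-Hochberg adjustment at 0.05. Firm changes numbered 582 (4.82% of genes tested): 190 genes rose (1.57%) and 392 fell (3.25%). With quantile normalization the firm split was 255 and 335, and that against PBS 258 and 341. Of the firm genes 319 (2.64%) were called in the same direction against isotype as well, 127 higher (1.05%) and 192 lower (1.59%). Both comparisons use the same 3 GA101 arrays, so that agreement between them is partly built in. The changes were mostly small, with a median of 0.39 over the rises and -0.37 over the falls, against -0.033 over all genes tested. Only 19 of the 190 rises and 16 of the 392 falls exceeded 1 on the log2 scale. The GA101 arrays lay apart from all 6 control arrays in 157 of the rises and 290 of the falls, as they did in 1281 of all genes tested (10.6%). The count of firm genes was 296 without PBS replicate 1, 381 without GA101 replicate 2 and 312 when a gene's probe sets were averaged. Against PBS alone it was 299 without PBS replicate 1 and 386 without GA101 replicate 2, and against both controls 208 without PBS replicate 1. In all, 191 genes, 75 higher and 116 lower, stayed firm in each of the 9 fits that left out a PBS, isotype or GA101 array.

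**Figure D1:**
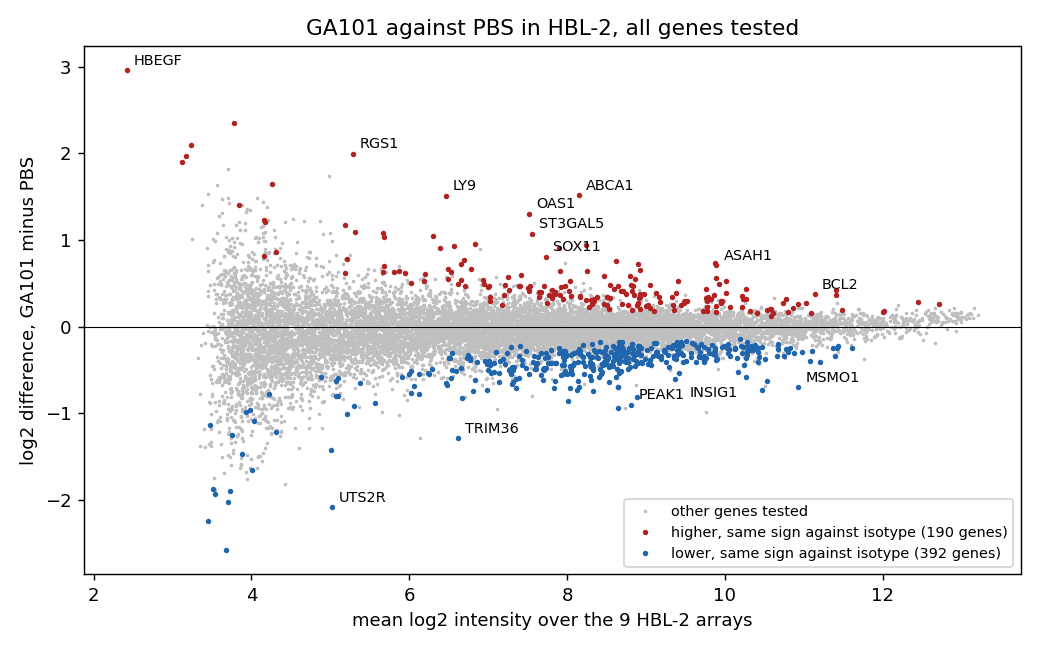
Log2 difference between GA101 and PBS in HBL-2 (vertical axis) against mean log2 intensity over the 9 HBL-2 arrays (horizontal axis), with 1 point for each of the 12075 genes tested. Red points are the 190 genes called higher against PBS with the same sign against isotype, blue points the 392 called lower, and grey points all others; the widest scatter is at the dim end, and ABCA1, LY9 and RGS1 stand out among the brighter rises.

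The largest rises were taken among genes called against both controls, with a mean intensity of at least 50 with GA101 or PBS and GA101 arrays apart from all 6 control arrays, so that the lack of overlap is part of the choice. They were led by RGS1 and included transcripts of lipid export, ganglioside synthesis, SLAM and interferon families and immediate early factors. RGS1, a GTPase activator that dampens chemokine receptor signals in B cells, was read by probe set 216834_at. Its intensities were 22.6, 24.9 and 25.6 with PBS, 22.6, 25.5 and 26.7 with isotype and 149.6, 85.9 and 71.2 with GA101, a 3.99-fold rise. All 3 GA101 arrays stood far above the controls, the first the highest, and the log2 difference was 2.00 ± 0.363 (SE, adjusted p = 0.000149). With rituximab the intensities were higher still, at 300.3, 263 and 381, and the GA101 and rituximab arrays did not overlap (-1.68, adjusted p = 0.0029, for GA101 minus rituximab). Of 8 tested RGS regulators RGS1 was the 1 firm gene, and the median of the list was -0.076.

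EGR1 and EGR3, zinc finger factors induced within minutes to hours of receptor signalling, were the firm rises among the immediate early genes. EGR3 had intensities of 151, 146 and 189.7 with GA101 against 111, 59.7 and 71.7 with PBS and 43.3, 39.2 and 34.9 with isotype. The GA101 arrays lay above all controls, by 1.05 ± 0.212 (SE, adjusted p = 0.000779) against PBS and 2.05 against isotype. EGR1 had 87.6, 107 and 92.3 with GA101, 56.6, 46.8 and 37.9 with PBS and 17.7, 37.3 and 43.2 with isotype, a rise of 1.04 ± 0.150 (SE, adjusted p = 1.88e-06) against PBS and 1.64 against isotype. The controls differed from each other at both genes, with isotype minus PBS at -1.002 (adjusted p = 0.00456) for EGR3 and -0.61 (adjusted p = 0.0233) for EGR1. The first call ended without PBS replicate 1 (adjusted p = 0.124). The second was only -0.21 without isotype replicate 1 (adjusted p = 0.819), and it also ended without PBS replicate 1 (adjusted p = 0.25) or PBS replicate 2 (adjusted p = 0.0767) and with the mean of its probe sets, -0.14 (adjusted p = 1). Both were brighter with GA101 than with rituximab, where EGR3 had 89.0, 106 and 101 and EGR1 71.8, 72.1 and 70.5, without passing the test (0.71, adjusted p = 0.0573, and 0.42, adjusted p = 0.167). HBEGF, a membrane-bound growth factor of the EGF family, had the largest log2 rise of the firm genes and was chosen after its values were seen, since it is dim: 3.09, 1.99 and 4.10 with PBS, 0.980, 3.92 and 3.08 with isotype and 28.5, 16.6 and 25.1 with GA101 (2.96 ± 0.275 SE, adjusted p = 8.09e-12). Its size depends on the floor: with intensities below 8 set to 8 the HBEGF difference was 1.51, still called.

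ABCA1, the transporter that hands cellular cholesterol and phospholipid to apolipoprotein A-I, was among the largest rises. Its intensities were 512, 519.6 and 737 with GA101, 199, 216 and 196 with PBS and 178, 196 and 209 with isotype, 2.86-fold over PBS (1.51 ± 0.302 SE, adjusted p = 0.000648). Rituximab arrays lay at 1001, 947 and 1137, all above those of GA101, though the difference did not pass the test (-0.82, adjusted p = 0.184). The other ABCA1 probe set gave a log2 difference of 1.48. LY9 (SLAMF3), a self-binding receptor of lymphocytes, had 164, 194 and 164 with GA101 against 53.5, 73.7 and 57.4 with PBS and 59.0, 65.7 and 70.9 with isotype. That was a 2.85-fold rise (1.51 ± 0.159 SE, adjusted p = 4.14e-10), and the rituximab arrays lay higher still at 479, 454 and 467.

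OAS1, an interferon-induced synthase of 2'-5'-oligoadenylates, had 349, 387 and 302 with GA101, 153, 140.3 and 127 with PBS and 139, 137 and 113 with isotype (1.30 ± 0.177 SE, adjusted p = 5.33e-07). The rituximab arrays were higher again at 785, 804 and 603. ST3GAL5, the sialyltransferase that makes ganglioside GM3, had the smallest p of the firm rises named here. It stood at 290.3, 302 and 307 with GA101 against 149, 134 and 144 with PBS and 147, 152 and 166 with isotype, a 2.10-fold rise (1.07 ± 0.0680 SE, adjusted p = 3.8e-18). SOX11, the neural transcription factor that marks most mantle cell lymphomas, had 317, 313 and 325 against 181, 198 and 168 with PBS and 164, 169 and 159 with isotype (0.81 ± 0.0723 SE, adjusted p = 3.01e-12). Its other probe sets had the same sign, and their mean with the first was 0.59 (adjusted p = 0.0863).

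The remaining large rises were NEU1, the lysosomal sialidase described with its list, RNA45SN5, ARID5B and UAP1L1. ARID5B, a DNA-binding partner of a histone demethylase, had 359, 371 and 336 with GA101 against 184, 189 and 194 with PBS (0.91 ± 0.113 SE, adjusted p = 4.25e-08). UAP1L1, a relative of the enzyme that makes UDP-N-acetylglucosamine, had 145, 125 and 127 against 87.5, 67.7 and 59.4 (0.90 ± 0.138 SE, adjusted p = 6.15e-06). RNA45SN5 names 1 of many near-identical copies of the ribosomal RNA precursor, so which copy the probe set reads is uncertain. It had 414, 496 and 519.8 against 245, 242 and 252 (0.95 ± 0.117 SE, adjusted p = 3.55e-08). All of these were higher still with rituximab, where ARID5B had 581, 558 and 571, UAP1L1 264, 232 and 205 and RNA45SN5 999, 1013 and 973.

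**Figure D2:**
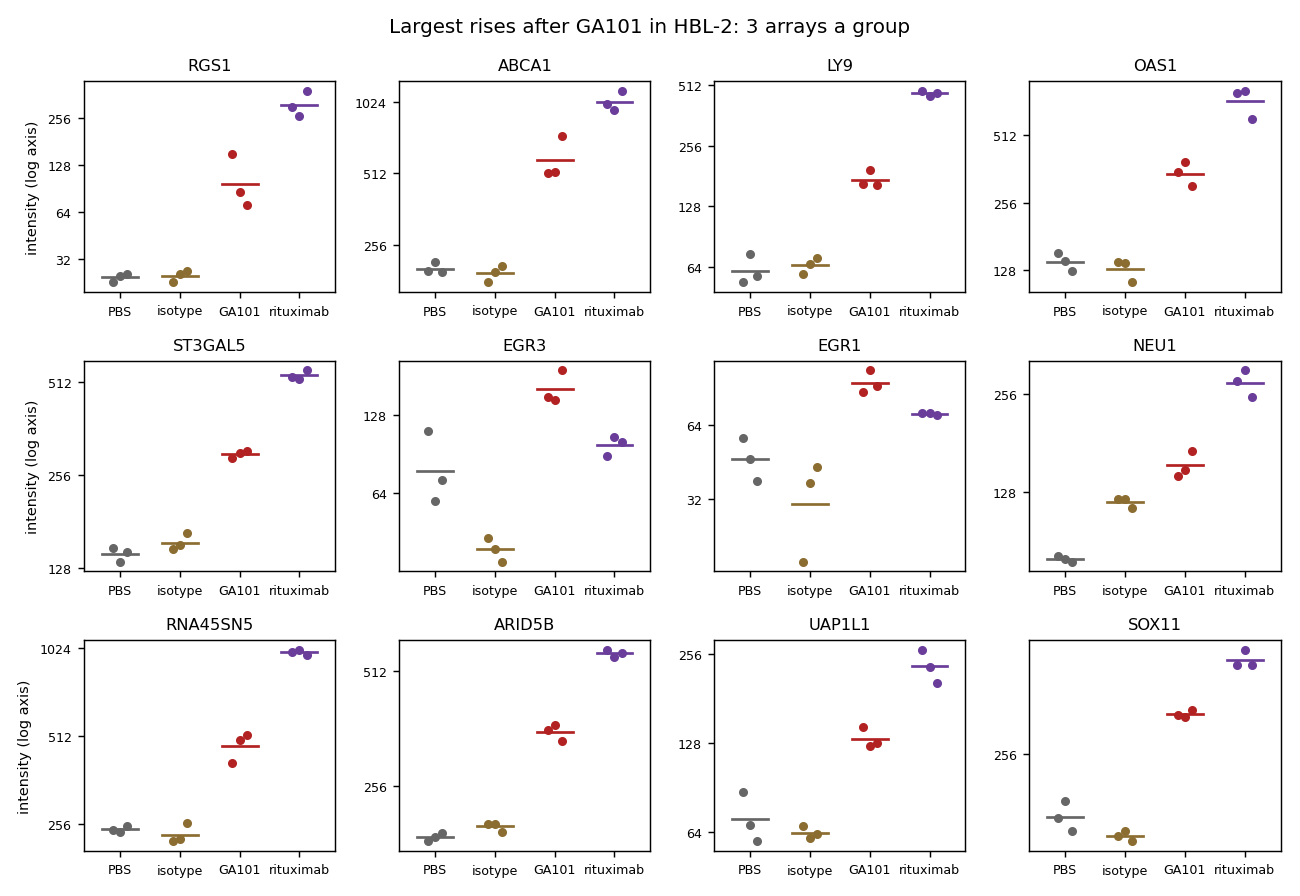
Intensities (vertical axes, log scale) of the 12 genes with the largest firm rises after GA101 in HBL-2, with 1 point per array, 3 arrays each for PBS, isotype, GA101 and rituximab, and a line at the mean of the log2 values. By the rule that chose them the GA101 points lie above all PBS and isotype points in each panel, and the rituximab points lie higher still except at EGR1 and EGR3.

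The largest falls, chosen by the same rule, were less alike in function. UTS2R, the receptor of the vasoactive peptide urotensin II, went from 44.2, 59.7 and 69.7 with PBS and 38.3, 53.9 and 43.2 with isotype to 8.86, 30.3 and 9.03 with GA101 (-2.08 ± 0.444 SE, adjusted p = 0.0015, against PBS). All GA101 arrays were below all controls, but the second was more than 3 times the others, and the call against isotype (-1.73, adjusted p = 0.00752) ended without GA101 replicate 1 (adjusted p = 0.0808) or GA101 replicate 3 (adjusted p = 0.0782). TRIM36, a ubiquitin ligase, fell from 157, 121 and 139 to 56.1, 55.7 and 58.2, a 2.45-fold drop (-1.29 ± 0.212 SE, adjusted p = 2.49e-05). PEAK1, a pseudokinase of the cytoskeleton, fell from 505, 505 and 473 to 284, 256 and 255 (-0.90 ± 0.123 SE, adjusted p = 5.42e-07). Here the isotype arrays, at 709.8, 730.4 and 655, were above PBS (0.50, adjusted p = 0.0232, for isotype minus PBS), a call that ended in 5 of 6 fits without 1 array (adjusted p from 0.0574 to 0.119).

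SLC30A1, the zinc exporter of the plasma membrane, fell from 532, 560.4 and 507 to 339, 294 and 279 (-0.82 ± 0.103 SE, adjusted p = 6.73e-08), and the isotype arrays had 736, 691 and 566. PPARGC1B, a coactivator of mitochondrial genes, fell from 419.8, 366 and 351 to 233, 229.5 and 213 (-0.75 ± 0.111 SE, adjusted p = 2.97e-06). ARHGEF3, an activator of RhoA, fell from 344, 316 and 269 to 173, 173 and 222 (-0.71 ± 0.124 SE, adjusted p = 6.77e-05). INSIG1 and MSMO1 belong to the cholesterol list described with it.

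The other 4 large falls were less steady. C16orf46 fell by 0.77 and lost its call without PBS replicate 3 (adjusted p = 0.0577). Its call against isotype (-0.61) ended in 4 of 6 fits without 1 array (adjusted p from 0.0553 to 0.0828). NANOS1, an RNA-binding regulator of germ cells, fell by 0.77, a call lost without GA101 replicate 1 (adjusted p = 0.0525) or PBS replicate 1 (adjusted p = 0.0584). KSR1, a scaffold of the ERK cascade, had 87.6, 72.3 and 62.2 against 118, 108 and 143 (-0.74 ± 0.164 SE, adjusted p = 0.00227), but the mean over its probe sets was -0.019 (adjusted p = 0.997). DTWD1, a tRNA-modifying enzyme, fell by 0.71, and the mean over its probe sets gave -0.22 (adjusted p = 0.483). The DTWD1 call against isotype (-0.55) also ended in 4 of 6 fits without 1 array (adjusted p from 0.0546 to 0.199).

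**Figure D3:**
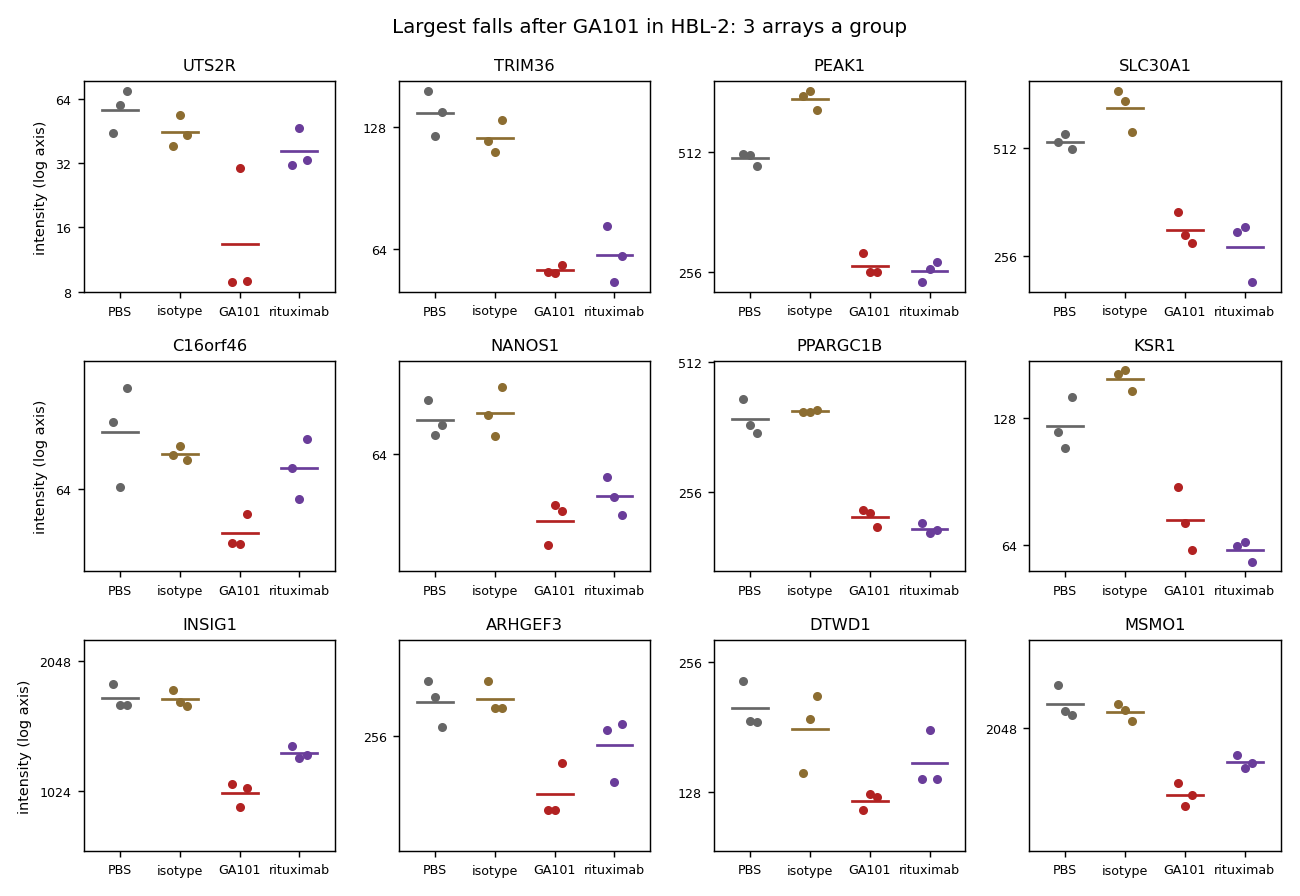
Intensities (vertical axes, log scale) of the 12 genes with the largest firm falls after GA101 in HBL-2, drawn as in the plot of rises with 3 arrays per group and a line at the mean of the log2 values. By the same rule GA101 points lie below all PBS and isotype points in each panel, and rituximab points lie near them at PEAK1, PPARGC1B and TRIM36.

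Lysosomal genes rose where they were called. In the gene lists that follow, rises and falls are firm ones, and members at or below the median brightness were not tested. A firm gene need only have the same sign against isotype. Not called against isotype were ATP6V0D1, HMGCS1, UGCG, JUND, CYLD, NFKB1, IL21R, IL2RG and CDK1. The same held for IRF4, CD58, ACTB, HLA-DQB1, OAS2, DDIT3, STIP1, DNAJB1 and NOP58. Each list's counts and median are to be read beside those of all genes tested, 1.57% higher, 3.25% lower and -0.033. Of 40 genes of the lysosome and autophagy list 35 were tested. The list gathers hydrolases, membrane proteins and their transcription factors, and 6 rose and 0 fell by limma, against 1.57% and 3.25% of all genes tested. Their median difference was 0.10 against -0.033 over all genes, and 26 of the 35 were above 0 against 43.1% of all genes. At an unadjusted p under 0.05 the list held 12 higher and 1 lower by limma. Of all genes tested 15.5% passed that threshold in either direction, and counts at it in later lists are to be read beside that share. NEU1, which removes sialic acids from glycoconjugates, rose from 81.3, 79.6 and 77.9 with PBS to 144, 149 and 172 with GA101 (0.96 ± 0.106 SE, adjusted p = 1.83e-09). With isotype it stood at 122, 122 and 114 (0.58, adjusted p = 0.000536, against PBS), so that GA101 lay only 0.37 (adjusted p = 0.0186) above isotype, a call that ended without GA101 replicate 3 (adjusted p = 0.15) or isotype replicate 3 (adjusted p = 0.0895). CTSA, the carboxypeptidase that protects NEU1 in their shared complex, rose from 88.5, 81.6 and 94.3 to 136, 156 and 158 (0.77 ± 0.130 SE, adjusted p = 4.64e-05), with isotype at 80.6, 82.3 and 93.5. ASAH1, the acid ceramidase, rose from 888, 706 and 813 to 1267, 1269 and 1382 (0.71 ± 0.101 SE, adjusted p = 1.28e-06), and its activator precursor PSAP from 941, 847 and 747 to 1106, 1049.9 and 1093 (0.36 ± 0.0623 SE, adjusted p = 5.47e-05). CTSA, ASAH1 and PSAP kept their calls against both controls in each fit that left out an array.

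The other rises of the list were smaller. LAMP1, the main glycoprotein of the lysosome's membrane, had 1122, 1146 and 1135 against 984, 966 and 867 (0.27 ± 0.0686 SE, adjusted p = 0.00813), a call that ended without PBS replicate 3 (adjusted p = 0.0984) and with the mean over its probe sets, 0.036 (adjusted p = 0.963). ATP6V0D1, a subunit of the proton pump, had 0.35 ± 0.0991 (SE, adjusted p = 0.025) and lost its call without GA101 replicate 1 (adjusted p = 0.117), GA101 replicate 2 (adjusted p = 0.0712), PBS replicate 2 (adjusted p = 0.0516) or PBS replicate 3 (adjusted p = 0.158). TFEB and TFE3, which switch lysosomal genes on, were at -0.21 and -0.10 and were not called. The lysosomal calcium channel MCOLN1 (0.55, adjusted p = 0.343) and the aspartic protease CTSD (-0.11) were not called either. Between the CD20 antibodies 7 of the 35 genes differed, all lower with GA101 than with rituximab, as were 1.63% of all genes tested, among them ASAH1, NEU1 and PSAP (-0.96, adjusted p = 6.5e-10, -0.85, adjusted p = 5.65e-08, and -0.67, adjusted p = 1.07e-11).

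Because 6 of the 35 tested genes of the list rose and 0 fell, promoters were read from RefSeq (GRCh38.p14), as 250 bases before to 50 bases after each gene's start. The letters CACGTG, the E-box core of the CLEAR element that TFEB binds, stood in all 4 promoters found for the 6 risen genes, those of CTSA, NEU1, LAMP1 and ATP6V0D1. No promoter was found for ASAH1 or PSAP, and the calls of LAMP1 and ATP6V0D1 were unsteady, as described. The letters stood in 8 of 27 promoters of the tested lysosome list (29.6%), in 12.6% of those of all genes tested, in 13.6% of those of firm rises and in 13.4% of those of firm falls. The full CLEAR palindrome, which contains this core, stood in 0 of the 4, in 2 of the 27 (7.41%) and in 0.891% of the promoters of all genes tested. CACGTG reads the same on both strands, so 1 search covers both. A match is a description of letters and shows no binding. The stretch around the match nearest to the start is shown for each, 5′ to 3′ on the gene's strand, with CACGTG in capitals, cut off at the start site.
CTSA, chr20:45891275-45891334, plus strand: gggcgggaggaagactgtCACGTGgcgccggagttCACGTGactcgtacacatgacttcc
NEU1, chr6:31862907-31862982, minus strand: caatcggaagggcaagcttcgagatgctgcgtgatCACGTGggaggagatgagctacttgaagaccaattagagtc
LAMP1, chr13:113297176-113297238, plus strand: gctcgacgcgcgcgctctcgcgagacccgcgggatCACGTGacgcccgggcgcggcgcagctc
ATP6V0D1, chr16:67481176-67481251, minus strand: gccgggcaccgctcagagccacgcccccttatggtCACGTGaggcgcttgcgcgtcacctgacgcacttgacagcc
The last base of the match lay 20 bases before the start in CTSA, 121 in NEU1, 23 in LAMP1 and 54 in ATP6V0D1.

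Cholesterol synthesis genes fell where they were called. Of 29 genes of cholesterol synthesis and SREBP targets 23 were tested. Of these genes, most of which the cell turns on when sterol in its membranes is low, 4 fell and 1, the exporter ABCA1, rose. Of all genes tested 3.25% fell and 1.57% rose. The median of the list was -0.12, against -0.033 over all genes. INSIG1, the membrane protein that holds SREBP in the endoplasmic reticulum and is itself an SREBP target, fell from 1812, 1618 and 1616 with PBS and 1755, 1649 and 1607 with isotype to 1063, 940.5 and 1043 with GA101 (-0.73 ± 0.0784 SE, adjusted p = 6.96e-10). MSMO1, a sterol oxidase, fell from 2568, 2242 and 2189 with PBS and 2316, 2244 and 2124 with isotype to 1524, 1349 and 1435 (-0.70 ± 0.0650 SE, adjusted p = 8.09e-12). At both genes the GA101 arrays lay below all controls, and both calls held in each fit without an array.

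HMGCS1, which makes the precursor of mevalonate, fell by 0.28 ± 0.0872 (SE, adjusted p = 0.0455) and lost its call in 5 of 6 fits without 1 array, all but that without PBS replicate 2 (adjusted p from 0.0887 to 0.238). SQLE, squalene epoxidase, fell by 0.25 ± 0.0644 (SE, adjusted p = 0.0116) and lost it in 4 of 6, all but those without GA101 replicate 1 or PBS replicate 3 (adjusted p from 0.0506 to 0.124). With averaged probe sets neither was called, at -0.20 (adjusted p = 0.145) and -0.39 (adjusted p = 0.195). The other 18 genes were not called, among them the desaturase SCD at -0.099, IDI1 at 0.064 and SREBF2, the factor that drives the pathway, at 0.034. GA101 was below rituximab at INSIG1 (-0.31, adjusted p = 0.0173), MSMO1 (-0.25, adjusted p = 0.0214) and HMGCS1 (-0.35, adjusted p = 0.0129). Each of these 3 calls ended without some single array: INSIG1 without GA101 replicate 2 (adjusted p = 0.157) or rituximab replicate 1 (adjusted p = 0.119), MSMO1 without GA101 replicate 2 (adjusted p = 0.176), GA101 replicate 3 (adjusted p = 0.0555), rituximab replicate 1 (adjusted p = 0.147) or rituximab replicate 3 (adjusted p = 0.0549), and HMGCS1 without GA101 replicate 2 (adjusted p = 0.0563) or rituximab replicate 1 (adjusted p = 0.153). The mean over the INSIG1 probe sets was -0.22 (adjusted p = 0.264).

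Of 17 ganglioside and sphingolipid enzymes 13 were tested, and 2 rose and 1 fell, with a median of -0.034. SGPP1, which removes the phosphate of sphingosine-1-phosphate, rose from 899, 761 and 721 to 1295, 1200.3 and 1472 (0.74 ± 0.0778 SE, adjusted p = 4.14e-10), beside ST3GAL5. UGCG, which puts glucose on ceramide, was at 1167, 1042 and 1160.0 against 1395, 1281 and 1282 with PBS and 1215, 1193 and 1120.0 with isotype (-0.23 ± 0.0507 SE, adjusted p = 0.00193), a call lost without GA101 replicate 2 (adjusted p = 0.0538). Its rituximab arrays, at 1867, 1842 and 1780.4, were all above those of GA101 (-0.71, adjusted p = 1.03e-15), and those of isotype overlapped GA101. The mean over its probe sets ended both calls, at -0.30 (adjusted p = 0.715) against PBS and -0.71 (adjusted p = 0.175) against rituximab.

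**Figure D4:**
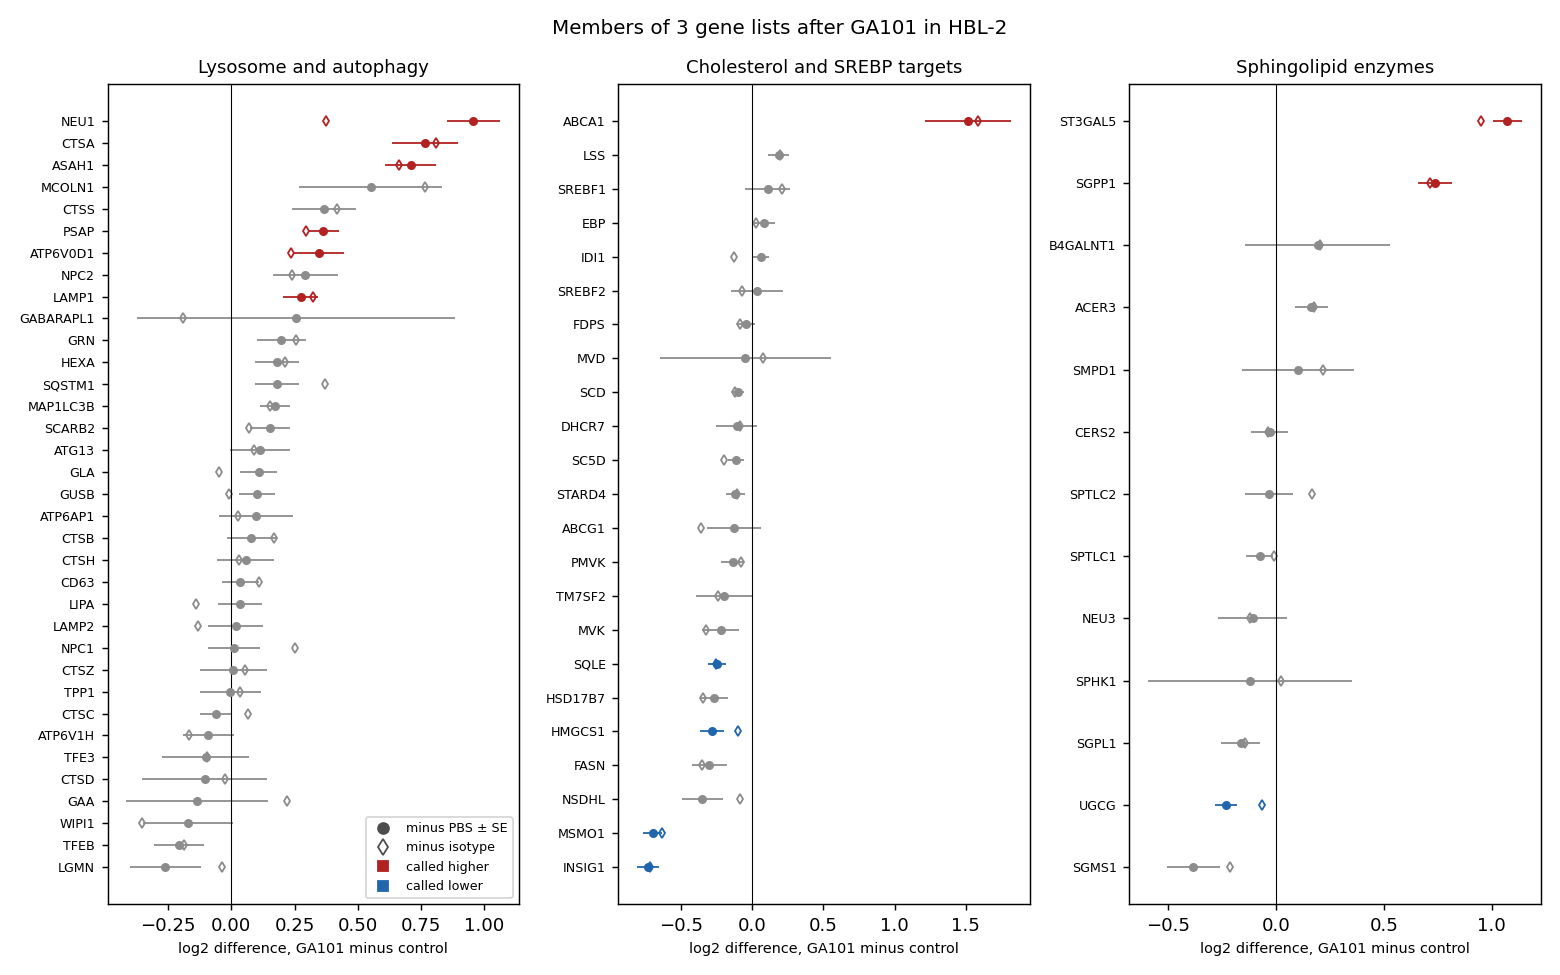
Log2 differences in HBL-2 (horizontal axes) for each tested member of the lysosome, cholesterol and sphingolipid lists, as GA101 minus PBS (filled circles, with bars of ± 1 standard error) and GA101 minus isotype (open diamonds). Red marks firm rises and blue firm falls: 6 and 0 of 35 lysosomal genes, 1 and 4 of 23 cholesterol genes, and 2 and 1 of 13 sphingolipid enzymes.

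Among immediate early genes EGR1 and EGR3 were the firm rises. Of 25 tested, 2 rose and 3 fell, with a median of -0.018. IER5, an immediate early regulator of heat shock factor, fell from 1781, 1830.5 and 1732 to 1448, 1393 and 1398 (-0.33 ± 0.0439 SE, adjusted p = 1.94e-07). NAB1, a corepressor that binds EGR proteins, fell by 0.51 ± 0.140 (SE, adjusted p = 0.0193), and JUND, a subunit of AP-1, fell by 0.24 ± 0.0655 (SE, adjusted p = 0.0178). The NAB1 call ended without GA101 replicate 2 (adjusted p = 0.108), GA101 replicate 3 (adjusted p = 0.137), PBS replicate 1 (adjusted p = 0.0649) or PBS replicate 3 (adjusted p = 0.0732), and that of JUND without GA101 replicate 2 (adjusted p = 0.0708), GA101 replicate 3 (adjusted p = 0.0628) or PBS replicate 3 (adjusted p = 0.0808). The mean over the JUND probe sets was -0.25 (adjusted p = 0.816). Other classical members were not called, with JUNB at -0.13, IER2 at -0.17 and MYC at 0.043. Of 11 tested feedback inhibitors of ERK signalling 0 were called against PBS or isotype by limma, and 1 was higher and 1 lower than PBS at an unadjusted p under 0.05, DUSP4 being at -0.21 and SPRY2 at -0.19. The EGR1 promoter, read from RefSeq (GRCh38.p14) over the same window, holds a pair of CArG boxes, the sites of serum response factor. Searched on both strands, they were found in 4.55% of the promoters of firm rises and 1.62% of those of all genes tested. They are shown in capitals because EGR1 is 1 of the 2 early genes that rose.
EGR1, chr5:138465361-138465440, plus strand: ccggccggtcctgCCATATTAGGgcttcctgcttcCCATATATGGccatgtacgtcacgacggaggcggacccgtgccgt

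No NF-kB gene was called higher than PBS. Of 26 tested subunits and targets 0 rose and 2 fell by limma (0 and 8 against PBS at an unadjusted p under 0.05), with a median of -0.15, but the median against isotype was 0.068 and that of isotype against PBS -0.27. A further pair, REL and the receptor CD40, was called lower than PBS (-0.27, adjusted p = 0.00856, and -0.30, adjusted p = 0.0394) but lay above isotype, at 0.0054 and 0.22, and so was not firm. Against isotype 2 genes were higher, the caspase-8 inhibitor CFLAR (0.43, adjusted p = 5.61e-05) and the adhesion molecule ICAM1 (0.57, adjusted p = 0.000129, and 0.46, adjusted p = 0.298, with averaged probe sets), where 3.39% of all genes were. NFKB1, which encodes the p105 and p50 subunits, had 414, 353 and 392 with GA101 against 510.3, 479 and 544 with PBS (-0.40 ± 0.0700 SE, adjusted p = 6.38e-05). The isotype arrays lay at 403, 409 and 406, within the range of GA101, so the fall stands against PBS only (-0.074, adjusted p = 0.712, against isotype). CYLD, a deubiquitinase that restrains the pathway, fell by 0.45 ± 0.125 (SE, adjusted p = 0.0214) and lost its call without GA101 replicate 3 (adjusted p = 0.139), PBS replicate 1 (adjusted p = 0.12) or PBS replicate 2 (adjusted p = 0.0504), under quantile normalization, and with the mean of its probe sets, -0.37 (adjusted p = 0.123). NFKBIA and TNFAIP3, its feedback inhibitors, were at 0.26 (adjusted p = 0.642) and -0.097.

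Among 25 tested chemokines, cytokines and receptors 1 rose and 2 fell, with a median of -0.12. GPR183 (EBI2), the oxysterol receptor that positions B cells in follicles, rose from 1006, 875 and 922 with PBS and 872, 812 and 970.0 with isotype to 1362, 1313 and 1355 with GA101 (0.53 ± 0.0829 SE, adjusted p = 1.05e-05). IL21R fell by 0.52 ± 0.121 (SE, adjusted p = 0.00408) and IL2RG, the common gamma chain it pairs with, fell by 0.55 ± 0.164 (SE, adjusted p = 0.0343). The IL21R call ended without PBS replicate 1 (adjusted p = 0.0584) and with the mean of its probe sets, -0.39 (adjusted p = 0.0808), and the IL2RG call without GA101 replicate 1 (adjusted p = 0.149), GA101 replicate 3 (adjusted p = 0.0783), PBS replicate 1 (adjusted p = 0.133) or PBS replicate 2 (adjusted p = 0.104) and under quantile normalization. CCL4, a chemokine that B cells secrete on receptor stimulation, had 430.1, 479.5 and 378 with GA101, 347, 348 and 267 with PBS and 222, 189 and 169 with isotype. It passed against isotype (1.15, adjusted p = 1.64e-08) and not against PBS (0.42, adjusted p = 0.0716).

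Cell cycle genes gave few calls. Of 33 tested G2/M and mitosis genes 3 rose and 0 fell by limma (6 and 0 at an unadjusted p under 0.05), with a median of 0.11, and 28 were above 0, against 43.1% of all genes. Against isotype 10 rose, as did 3.39% of all genes, and the median was 0.18, and isotype alone was below PBS with a median of -0.062. CDK1, the kinase that drives entry to mitosis, rose from 2316, 2432 and 2430.4 with PBS to 3418, 3194 and 3017 (0.42 ± 0.112 SE, adjusted p = 0.0137) and was not called against isotype. Its call against PBS was lost without GA101 replicate 1 (adjusted p = 0.0855) or PBS replicate 1 (adjusted p = 0.0786). The cyclin CCNB2 rose by 0.20 ± 0.0465 (SE, adjusted p = 0.00489) and the kinetochore protein CENPF by 0.18 ± 0.0460 (SE, adjusted p = 0.0111). CCNB2 lost its call without PBS replicate 3 (adjusted p = 0.0823) and turned to -0.27 (adjusted p = 0.516) when its probe sets were averaged, while CENPF lost it without GA101 replicate 2 (adjusted p = 0.0515) or PBS replicate 1 (adjusted p = 0.0649). With averaged probe sets CDK1 was at 0.14 (adjusted p = 0.273) and CENPF at 0.015 (adjusted p = 0.982). Of 28 G1/S and replication genes and of 11 D cyclins, partner kinases and inhibitors 0 were called against PBS, with medians of 0.020 and -0.032. At an unadjusted p under 0.05 limma gave 4 higher and 1 lower in the first list, and 1 and 0 in the second. The proliferation marker MKI67 was at 0.035, PCNA at -0.033 and CDKN1A, the p53-induced inhibitor, at -0.0058.

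Genes of cell death gave 1 call. BCL2, the anti-apoptotic protein that venetoclax blocks, was the 1 firm gene among 5 tested anti-apoptotic family members. It rose from 2105, 2244 and 1975 with PBS and 1957, 2027 and 1977 with isotype to 2802, 2745 and 2618 with GA101 (0.37 ± 0.0660 SE, adjusted p = 0.000109), and rituximab arrays were higher at 3422, 3221 and 3342 (-0.29, adjusted p = 0.00536, for GA101 minus rituximab). With the mean of the BCL2 probe sets neither was called, at 0.23 (adjusted p = 0.721) against PBS and -0.30 (adjusted p = 0.754) against rituximab. MCL1 and BCL2L1 were at -0.12 and -0.35 and were not called. Of 10 pro-apoptotic members, 18 death receptor, caspase and IAP genes and 19 p53 targets 0 were called against PBS, with medians of -0.023, -0.0064 and -0.047. At an unadjusted p under 0.05 limma gave 0 higher in each of these lists, and 1, 4 and 1 lower. In these lists BAX was at 0.17, PMAIP1 at -0.13, FAS at -0.24 and MDM2 at -0.047.

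In B cell receptor signalling 1 gene of 22 rose and 2 fell, with a median of -0.0068. The adaptor BLNK rose from 1819, 1771 and 1698 to 2088, 1944 and 2100.2 (0.21 ± 0.0427 SE, adjusted p = 0.000648), and the kinase LYN fell from 1851, 2022 and 1792 to 1695, 1571 and 1490.1 (-0.25 ± 0.0523 SE, adjusted p = 0.00102). The mean over the LYN probe sets was -0.20 (adjusted p = 0.829). PIK3R1, the regulatory subunit of PI3 kinase, fell by 0.30 ± 0.0934 (SE, adjusted p = 0.0472), a call lost in 6 of 6 fits that left out 1 array (adjusted p from 0.0592 to 0.297), under quantile normalization, and with the mean of its probe sets, -0.28 (adjusted p = 0.737). BTK and SYK were at -0.057 and -0.037.

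Of 23 B cell and plasma cell identity genes 2 rose and 3 fell, with a median of -0.15. Beside SOX11, POU2AF1, a coactivator of immunoglobulin genes, rose by 0.16 ± 0.0438 (SE, adjusted p = 0.0153), a call lost without GA101 replicate 1 (adjusted p = 0.12), PBS replicate 1 (adjusted p = 0.0921) or PBS replicate 3 (adjusted p = 0.0825). The falls were in factors of late B cell differentiation and the Ikaros family. IRF4 fell from 370.4, 358 and 329.9 to 275, 265 and 235 (-0.45 ± 0.0790 SE, adjusted p = 7.17e-05), with isotype arrays at 296, 331 and 269, which overlapped both. IKZF3 (Aiolos) fell by 0.44 ± 0.110 (SE, adjusted p = 0.00851), but stood at only -0.28 (adjusted p = 0.25) without PBS replicate 1, and it also lost the call without GA101 replicate 2 (adjusted p = 0.0748). IKZF1 (Ikaros) fell by 0.20 ± 0.0474 (SE, adjusted p = 0.00505), a call lost without PBS replicate 1 (adjusted p = 0.143). With averaged probe sets IKZF3 was at -0.59 (adjusted p = 0.206) and IKZF1 at -0.11 (adjusted p = 0.858). PAX5 was at -0.69 (adjusted p = 0.348).

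Among 15 activation and costimulation genes 2 rose and 2 fell, with a median of -0.11. CD69, the early activation antigen, had 118, 124 and 127 with GA101 against 93.6, 84.6 and 85.0 with PBS and 77.7, 99.0 and 89.4 with isotype (0.49 ± 0.102 SE, adjusted p = 0.00102). Its rituximab arrays, at 73.8, 74.1 and 78.6, lay below every GA101 array (0.71, adjusted p = 1.91e-06). CD48, a ligand of the SLAM family, rose by 0.28 ± 0.0621 (SE, adjusted p = 0.00278), though the mean over its probe sets was -0.021 (adjusted p = 0.988). CD86, a ligand of CD28, fell from 228, 242 and 197 with PBS and 249, 246 and 260.0 with isotype to 128, 177 and 176 (-0.48 ± 0.131 SE, adjusted p = 0.0157), a call lost without GA101 replicate 1 (adjusted p = 0.239), PBS replicate 1 (adjusted p = 0.0815) or PBS replicate 2 (adjusted p = 0.0991) and under quantile normalization. CD58, the ligand of CD2, fell by 0.55 ± 0.0932 (SE, adjusted p = 4.5e-05) against PBS and lay at isotype level (-0.11, adjusted p = 0.684), isotype alone being at -0.45 (adjusted p = 0.00413) against PBS.

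Adhesion and actin genes were examined because homotypic adhesion is a mark of type II antibodies. Of 31 tested 2 rose and 0 fell by limma (4 and 0 at an unadjusted p under 0.05), with a median of 0.046. TPM4, a tropomyosin, rose from 81.3, 79.6 and 74.8 to 114, 110.4 and 119 (0.55 ± 0.121 SE, adjusted p = 0.00242), and the mean over its probe sets was 0.38 (adjusted p = 0.101). ACTB, beta actin, rose by 0.26 ± 0.0724 (SE, adjusted p = 0.021) and was not called against isotype (0.11, adjusted p = 0.476). It lost its call without GA101 replicate 1 (adjusted p = 0.0949), GA101 replicate 2 (adjusted p = 0.0898), PBS replicate 2 (adjusted p = 0.101) or PBS replicate 3 (adjusted p = 0.0718) and under quantile normalization. Integrins were not called, ITGB1 being at -0.048 and ITGAL at 0.14. Of 8 complement regulators and Fc gamma receptors 0 were called against PBS or isotype by limma, and 1 was lower than PBS at an unadjusted p under 0.05, CD55 being at -0.033, CD46 at -0.084 and CD59 at -0.24.

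Antigen presentation genes gave 1 call. Of 12 class II genes HLA-DQB1 alone fell (-0.25 ± 0.0709 SE, adjusted p = 0.024), a call that ended without GA101 replicate 1 (adjusted p = 0.0614), GA101 replicate 2 (adjusted p = 0.0723), GA101 replicate 3 (adjusted p = 0.0673) or PBS replicate 2 (adjusted p = 0.23) and under quantile normalization. The mean over its probe sets was -0.17 (adjusted p = 0.782). Its sequence is close to that of other class II genes, so the probe set's identity is uncertain. HLA-DRA and CD74 were at 0.046 and 0.017. Of 16 class I processing genes 0 were called by limma, with a median of 0.053, and 2 were higher at an unadjusted p under 0.05. Of 21 interferon response genes 3 rose and 0 fell by limma (4 and 0 at an unadjusted p under 0.05), with a median of 0.081. Beside OAS1, OAS2 rose from 61.7, 80.6 and 76.8 to 156, 139 and 122 (0.93 ± 0.237 SE, adjusted p = 0.00992), a call lost without GA101 replicate 1 (adjusted p = 0.0632) or PBS replicate 1 (adjusted p = 0.0931). The DNA sensor IFI16 rose from 2486, 2597 and 2518 to 3238, 3295 and 3272 (0.37 ± 0.0569 SE, adjusted p = 7.69e-06). With averaged probe sets OAS2 was at 0.75 (adjusted p = 0.129) and IFI16 at 0.32 (adjusted p = 0.429). ISG15 and MX1, which interferon induces strongly in most cells, were at 0.039 and 0.15.

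Stress and metabolic lists held 1 or 2 firm genes each. Of 24 ER stress and ATF4 targets DDIT3 (CHOP) rose by 0.63 ± 0.154 (SE, adjusted p = 0.007), a call lost without GA101 replicate 2 (adjusted p = 0.0557), PBS replicate 1 (adjusted p = 0.131) or PBS replicate 3 (adjusted p = 0.0505), while HSPA5 was at -0.019 and ATF4 at 0.081. Of 14 chaperones the co-chaperone STIP1 rose by 0.76 ± 0.217 (SE, adjusted p = 0.0246) and DNAJB1, which works with HSP70, fell from 854, 848 and 798 to 669, 629.9 and 597 (-0.40 ± 0.0781 SE, adjusted p = 0.000466), both against PBS. Neither was called against isotype. STIP1 had 498, 758 and 388 with GA101 and was at only 0.50 (adjusted p = 0.323) without its second array; it also lost its call without GA101 replicate 1 (adjusted p = 0.0507), PBS replicate 1 (adjusted p = 0.0936) or PBS replicate 3 (adjusted p = 0.0934), and with the mean of its probe sets, 0.55 (adjusted p = 0.316). Of 28 hypoxia and glycolysis genes VEGFA, the growth factor of blood vessels, fell from 497, 459 and 508 to 351, 318 and 353 (-0.52 ± 0.0996 SE, adjusted p = 0.000375), and the mean over its probe sets was -0.079 (adjusted p = 0.877). GCLC, which limits glutathione synthesis, fell from 424, 362 and 380.1 to 332, 302 and 317 (-0.29 ± 0.0603 SE, adjusted p = 0.000913), the 1 call among 12 NRF2 targets.

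ARRDC3, an arrestin-domain adaptor, rose from 215, 193 and 201 to 337, 297 and 317 (0.64 ± 0.146 SE, adjusted p = 0.00311), whereas its relative TXNIP was at 0.015. Of 18 MYC targets and ribosome biogenesis genes 0 rose and 3 fell by limma (0 and 4 at an unadjusted p under 0.05), with a median of -0.021. WDR43, NOP58 and POLR1B, which act in making ribosomal RNA, had differences of -0.40 ± 0.0757 (SE, adjusted p = 0.000243), -0.39 ± 0.0662 (SE, adjusted p = 4.27e-05) and -0.34 ± 0.0533 (SE, adjusted p = 1.05e-05). Of 12 clustered histone genes, whose near-identical copies make the identity of a probe set uncertain, 2 rose: H1-5 by 2.10 ± 0.567 (SE, adjusted p = 0.016) and H3C2 by 0.61 ± 0.187 (SE, adjusted p = 0.0405). H1-5 was dim in the controls, at 4.12, 16.9 and 3.07 with PBS, and lost its call without GA101 replicate 2 (adjusted p = 0.0671), PBS replicate 1 (adjusted p = 0.126) or PBS replicate 3 (adjusted p = 0.162). H3C2 lost its call in 6 of 6 fits without 1 array (adjusted p from 0.0521 to 0.168), and with the mean of its probe sets, 0.61 (adjusted p = 0.057). Of 11 quiescence factors, 5 NADPH oxidase subunits and 17 genes of mitochondrial respiration 0 were called against PBS by limma, and at an unadjusted p under 0.05 these lists held 1, 0 and 2 higher and 0, 0 and 1 lower.

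GA101 and rituximab, both antibodies to CD20 at the same dose, differed at 247 genes (2.05%), 50 higher with GA101 (0.414%) and 197 lower (1.63%). With quantile normalization the split was 90 and 165, and without rituximab replicate 1 the count was 150. Of the 190 firm rises 64 were lower with GA101 than with rituximab and 6 were higher, and 120 were not called, with a median difference of -0.19 against -0.024 over all genes. Of the 392 firm falls 27 were lower and 9 higher with GA101. Among the rises the fold of rituximab over GA101 was 3.20 for RGS1, 2.69 for LY9, 2.10 for OAS1, 1.80 for ST3GAL5 and 1.94 for ASAH1. These contrasts share the GA101 arrays with those that chose the rises, so the counts describe the chosen genes and were not tested as a group.

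Genes higher with GA101 than with rituximab were fewer. LIMA1, which binds actin filaments, had 124, 136 and 149.5 with GA101 against 53.6, 66.0 and 66.5 with rituximab and 86.4, 108 and 87.1 with PBS (1.14 ± 0.141 SE, adjusted p = 4.13e-08, for GA101 minus rituximab). It rose over PBS by 0.54 (adjusted p = 0.0118), a call that ended without GA101 replicate 3 (adjusted p = 0.0749), PBS replicate 1 (adjusted p = 0.0917) or PBS replicate 3 (adjusted p = 0.0668), and with the mean of its probe sets, 0.80 (adjusted p = 0.074). LTB, the lymphotoxin that anchors lymphotoxin alpha, had 65.9, 66.4 and 68.2 against 43.5, 33.5 and 30.2 (0.92 ± 0.187 SE, adjusted p = 0.00121) and overlapped its PBS level of 76.1, 55.7 and 52.3. The mean over its probe sets was 0.43 (adjusted p = 0.301). CHST2, a sulfotransferase, and STK17A, a kinase of the death-associated family, were above rituximab by 0.59 ± 0.0905 (SE, adjusted p = 7.89e-06) and 0.58 ± 0.0690 (SE, adjusted p = 1.53e-08), and GA101 minus PBS was at -0.14 (adjusted p = 0.495) and -0.28 (adjusted p = 0.00656). The mean over the CHST2 probe sets was 0.69 (adjusted p = 0.219) above rituximab. TRAPPC14 was the fifth largest of the differences below rituximab, with 36.4, 22.5 and 22.1 against 67.8, 53.8 and 40.3 with rituximab (-1.01 ± 0.239 SE, adjusted p = 0.00914), a call lost without GA101 replicate 2 (adjusted p = 0.0802), GA101 replicate 3 (adjusted p = 0.0697) or rituximab replicate 1 (adjusted p = 0.133).

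The response of HBL-2 was then set against the mean response of the other 4 lines to GA101 minus PBS. The difference passed at 658 genes (5.45%), 160 with HBL-2 above the others (1.33%) and 498 below (4.12%). With quantile normalization the split was 248 and 275, and without PBS replicate 1 the count was 355. Counts of genes that differed between GA101 and PBS in the other lines were 432 higher and 104 lower in Z138, 47 and 18 in GRANTA-519, 522 and 141 in JEKO-1 and 613 and 741 in REC-1. Of the firm rises of HBL-2 88 were above the mean of the other lines and 1, RNA45SN5, below it. Of the firm falls 257 were below it and 0 above. The comparison uses the same HBL-2 arrays that chose these genes, so the share is not an independent result.

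ABCA1 was above the other lines by 1.81 ± 0.338 (SE, adjusted p = 0.000203). It was at -0.097 in Z138, -0.65 in GRANTA-519, -0.030 in JEKO-1 and -0.42 in REC-1. OAS1 was above the others by 1.25 ± 0.198 (SE, adjusted p = 1.15e-05), with REC-1 at -0.41. SOX11 was above them by 0.75 ± 0.0809 (SE, adjusted p = 1.05e-09), or 0.47 (adjusted p = 0.272) with the mean of its probe sets. INSIG1 was at -0.88 ± 0.0877 (SE, adjusted p = 2.25e-10) relative to them, with 3 of the other lines above 0. RGS1 passed narrowly (1.29, adjusted p = 0.0472). Z138 and JEKO-1 were at 1.06 and 1.12, and the call ended in 5 of 6 fits without 1 array, all but that without GA101 replicate 3 (adjusted p from 0.0703 to 0.254), with no filter on dim genes, without the intensity trend, and with the mean of its probe sets, 0.67 (adjusted p = 0.151).

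DUSP2 and MAFF, both early response genes, lay below the mean of the other lines. DUSP2, an ERK phosphatase, had 143, 179 and 172 with GA101 and 143, 189 and 174 with PBS in HBL-2 (-0.035, adjusted p = 0.97). It was at 0.94 in REC-1, 0.91 in JEKO-1 and 2.46 in Z138, but only 0.17 in GRANTA-519. HBL-2 minus the mean of the others was -1.16 ± 0.160 (SE, adjusted p = 8.17e-07). MAFF, a small Maf factor, was at 0.33 in HBL-2 and 3.65, 3.72 and 1.05 in Z138, JEKO-1 and REC-1, but at 0.22 in GRANTA-519, below HBL-2. The difference from the mean of the others was -1.83 ± 0.376 (SE, adjusted p = 0.000808), and the mean over the MAFF probe sets gave -0.72 (adjusted p = 0.469). EGR1 and EGR3 were lower in HBL-2 than in Z138, JEKO-1 and REC-1, but the difference from the mean of the 4 lines did not pass (-0.45, adjusted p = 0.118, and -0.49, adjusted p = 0.27). CD69 was at 0.49 in HBL-2 and at 0.55, 0.62, 0.46 and 1.59 in REC-1, JEKO-1, GRANTA-519 and Z138 (-0.32, adjusted p = 0.0947).

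**Figure D5:**
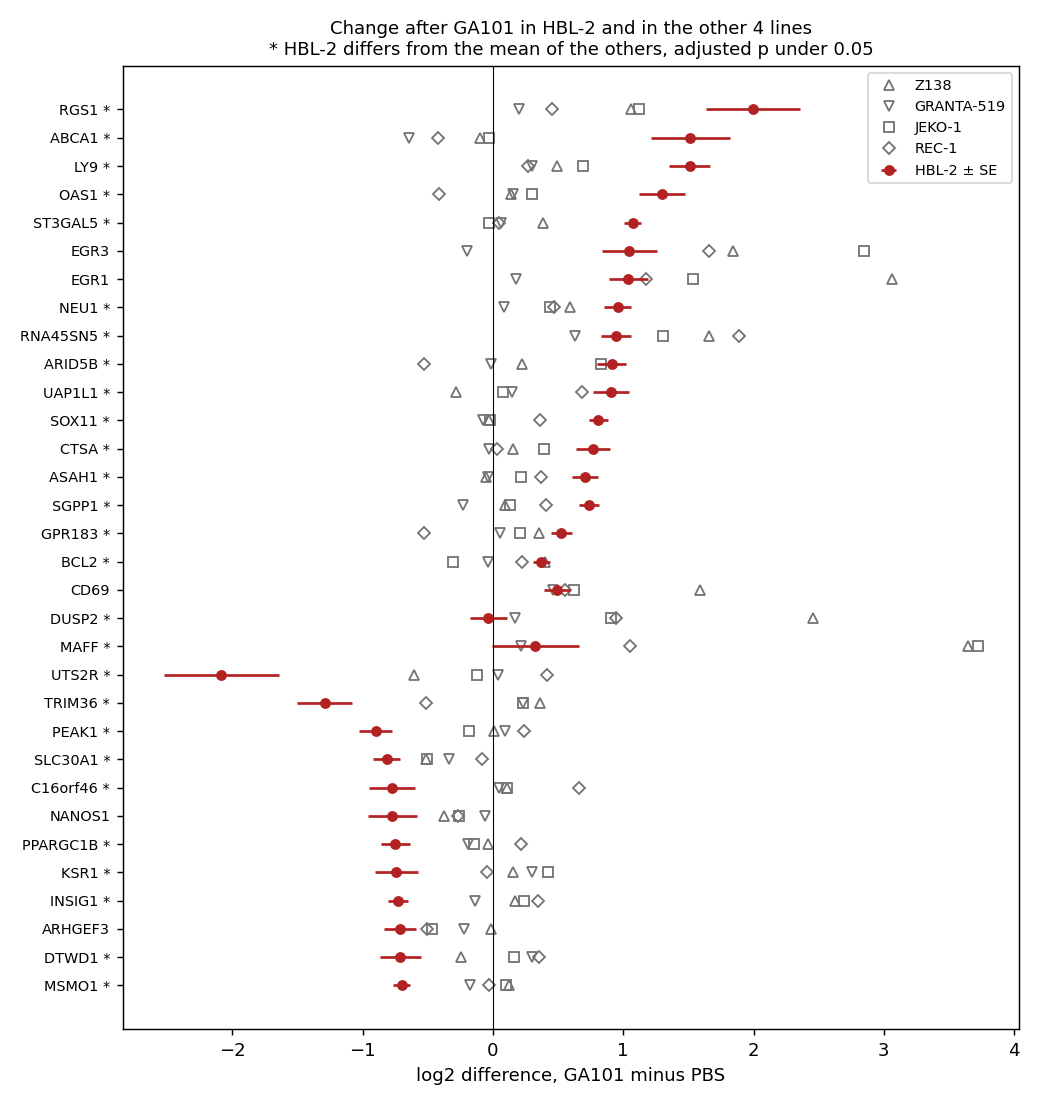
Log2 difference between GA101 and PBS (horizontal axis) for 32 named genes (vertical axis), in HBL-2 (red circles with bars of ± 1 standard error) and in the other 4 lines (open symbols). An asterisk marks genes at which HBL-2 differed from the mean of the other 4 lines; ABCA1, OAS1 and ST3GAL5 stand to the right of all other lines, INSIG1 and TRIM36 to their left, and DUSP2 lies near 0 in HBL-2.

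The isotype control was compared with PBS in HBL-2 to show what the choice of control carries. It differed at 162 genes (1.34%), 40 higher (0.331%) and 122 lower (1.01%), 58 and 102 with quantile normalization. The count was 70 to 98 in 5 of the 6 fits without 1 array, lowest without isotype replicate 1, and 168 in the fit without isotype replicate 3. ENPP2 (autotaxin), which makes lysophosphatidic acid, had 369, 311 and 364 with isotype against 167, 173 and 144 with PBS and 208, 141 and 132 with GA101 (1.11 ± 0.114 SE, adjusted p = 4.89e-10, for isotype minus PBS). CHORDC1, a partner of HSP90, had 1022, 983 and 1204 with isotype against 1882, 1650.3 and 1850.4 with PBS (-0.75 ± 0.0689 SE, adjusted p = 2.52e-11), and GA101 arrays stood at 1636, 1482 and 1745. DFFA, the inhibitor of the caspase-activated DNase, was lower with isotype, at -0.54 (adjusted p = 6.15e-10). RILPL2 was higher with isotype, by 0.33 to 0.42 in the 6 fits without 1 array. U2SURP was also higher, at 0.37, but at 0.14 with averaged probe sets (adjusted p = 0.987). PHF14 was lower, at -0.57, but turned to 0.14 with averaged probe sets (adjusted p = 0.7). Against isotype GA101 differed at 779 genes (6.45%), 409 higher (3.39%) and 370 lower (3.06%). Of the firm genes 16 rises and 19 falls were also called between isotype and PBS, EGR1, EGR3, NEU1, PEAK1, NFKB1 and CD58 among them.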

How the data were processed

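The deposited values are probe set intensities on a linear scale, 1 column per array, with nearly the same mean on each. MAS5 is named in the submitters' processing notes, with no version, and its settings are not stated in what was read here. Total RNA was extracted and labelled as biotinylated cRNA, per the labels' protocols. From the 54675 probe sets, 62 controls were left out, as were 1801 with several gene symbols and 11777 with none. Intensities below 1 were set to 1 and taken to log2. Probe sets were kept where the mean over the 15 HBL-2 arrays exceeded the median of all probe sets (3.64 on the log2 scale, an intensity of 12.5), and the brightest stood for its gene, which left 12075 genes. A linear model over all 75 arrays with 25 group means (limma 3.58.1 in R 4.3.3, with an intensity trend) gave moderated tests with 50 residual degrees of freedom, and p-values were adjusted over all genes by the method of Benjamini and Hochberg at 0.05. Fold changes are on the log2 scale after this floor, and those of dim genes depend on where it is set. On simulated data with 200 changed genes of 12075, the same fit recovered 38% of those changed by 0.5 and 78% of those changed by 1, with 7 false among 124 calls. The simulated noise was independent between arrays, with the same spread for a gene in all groups, as the fit assumes. The share of false calls in the real arrays was therefore not measured. The genes described are the 12 largest rises and falls, up to 6 firm genes of each list, and MS4A1 and CCND1. To these come the 5 largest differences in either direction from rituximab and from the other lines. Between the controls the 3 genes with the smallest p in each direction were taken. Members and lists were chosen with earlier results of these data known. List members with no firm call are examples chosen after their values were seen. Alternatives were a replicate block, quantile normalization, other filters, a floor of 8, averaged probe sets, HBL-2 arrays alone, no intensity trend and leaving out each array. Promoters came from RefSeq on GRCh38.p14.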

Additional observations from a re-analysis of the deposited data

Results flagged for a closer look

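The GA101 minus PBS difference of HBL-2 was tested against the mean of the same difference in REC-1, JEKO-1, GRANTA-519 and Z138 with limma, adjusted over all 12075 genes. It passed at 64 of the genes described here, and the values are HBL-2 minus the mean of the other lines on the log2 scale. Since most of these genes were chosen for their change in HBL-2, the direction is partly set by the choice. The call ended in at least 1 fit without 1 HBL-2 array at 20 of the 64, for 5 genes without PBS replicate 2 and up to 14 without PBS replicate 1: BCL2, CACFD1, CYLD, GCLC, HMGCS1, IFI16, IKZF3, IL2RG, LAMP1, LOC100505915, NOP58, PSAP, RGS1, RNA45SN5, SLC30A1, SQLE, STK17A, TRAPPC14, UGCG and UTS2R. It also ended or reversed at 20 with averaged probe sets.

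Among large rises HBL-2 was above the other lines at ABCA1 (1.81), RGS1 (1.29), OAS1 (1.25), LY9 (1.07), ST3GAL5 (0.96), ARID5B (0.78), UAP1L1 (0.75), SOX11 (0.75) and NEU1 (0.56). RNA45SN5, the ribosomal RNA precursor, was the 1 rise below them (-0.42). HBEGF, which is dim, was at 2.93, LOC100505915 at 1.41, and CACFD1 at 1.08, or 0.59 without PBS replicate 1. LOC100505915 has no described function, and CACFD1 encodes a membrane protein.

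Large falls were below the other lines at UTS2R (-2.01), TRIM36 (-1.37), C16orf46 (-1.01), KSR1 (-0.95), PEAK1 (-0.94), INSIG1 (-0.88), DTWD1 (-0.85), PPARGC1B (-0.71), MSMO1 (-0.70) and SLC30A1 (-0.46). MAFF (-1.83) and DUSP2 (-1.16) were below them without being called in HBL-2 itself. CATSPER1, a sperm calcium channel subunit, was at -1.14, and its fall in HBL-2 (-0.88, adjusted p = 0.0189) was lost in 4 of 6 fits without 1 array (adjusted p from 0.0605 to 0.0867). TRAPPC14 was at -0.999, STK17A at -0.30, RILPL2 at -0.47 and CHORDC1 at -0.39.

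In the lipid and lysosome lists HBL-2 was above the others at SGPP1 (0.64), CTSA (0.63), ASAH1 (0.59), PSAP (0.29) and LAMP1 (0.25), and below them at HMGCS1 (-0.38), SQLE (-0.28) and UGCG (-0.25). Among early, NF-kB and cytokine genes it was below them at NAB1 (-0.83), IER5 (-0.34), JUND (-0.51), CYLD (-0.46), NFKB1 (-0.62), IL2RG (-0.62) and IL21R (-0.96), and above them at GPR183 (0.50).

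Among B cell genes it was above them at BCL2 (0.30), BLNK (0.28) and POU2AF1 (0.25), and below them at CD58 (-0.86), IRF4 (-0.54), IKZF3 (-0.40), HLA-DQB1 (-0.38) and LYN (-0.28). Of the remaining lists CCNB2 (0.28), CENPF (0.23), ACTB (0.31) and IFI16 (0.21) were above them. VEGFA (-0.70), DNAJB1 (-0.54), WDR43 (-0.50), POLR1B (-0.43), NOP58 (-0.32) and GCLC (-0.25) were below them.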

How the results depend on the processing

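Each comparison was recomputed under the alternatives. Averaging a gene's probe sets gave 315 genes for GA101 against PBS, 481 against isotype, 85 for isotype against PBS, 438 for HBL-2 against the other lines, 312 firm and 183 called against both controls, and MS4A1 rose by 0.25 (adjusted p = 0.00233) against PBS. Under the same setting 6 values changed sign: LAMP1 against the other lines (-0.061), CCNB2 against PBS (-0.27), isotype (-0.29) and the other lines (-0.24), CD48 against PBS (-0.021), and PHF14 for isotype minus PBS (0.14). With HBL-2 arrays only, isotype against PBS gave 96 genes.

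Without 1 array at a time the counts ran from 299 to 498 for GA101 against PBS, 590 to 632 against isotype, 70 to 168 for isotype against PBS, 150 to 230 against rituximab, 355 to 581 against the other lines, 296 to 579 for firm genes and 208 to 283 for both controls, and MS4A1 from 0.096 to 0.18. The lowest firm count, without PBS replicate 1, shared 281 of the 582 genes (48.3%). Of the GA101 minus PBS values of 80 named genes, 978 of 1120 kept direction and call, 140 lost the call and 2 reversed. Counted by gene, 31 of the 80 lost the call in at least 1 fit without 1 array. With averaged probe sets 28 of the 80 lost the call or reversed. The 80 include CCND1, which had no call to lose.

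After group means were taken off, same-numbered arrays of different groups correlated at 0.039 to 0.121. Differently numbered arrays ran from -0.114 to 0.039. The main fit holds no replicate effect, and whether the numbers mark shared cultures or batches was not tested. With the replicate block 792 genes differed from PBS, 1017 from isotype and 774 were firm, 580 of them among the 582, and isotype against PBS gave 250. With 3 arrays a group of 1 line, no time course, and unstated culture origin, small changes are the least certain, and dim probe sets carry the widest errors.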
